A study of Mus musculus with 8 samples.

Results

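The clustered protocadherins are cell-surface cadherins encoded side by side in the alpha, beta and gamma clusters of mouse chromosome 18. They were taken here as every gene of the deposited table whose symbol begins with Pcdha, Pcdhb or Pcdhg followed by a member name of those clusters. The set was chosen by the normalised values of these same 8 libraries, since its naive-to-cast difference was already known when it was proposed. The rule gave 52 of 16464 listed genes, namely 9 of the alpha cluster, 21 of the beta cluster and 22 of the gamma cluster. The tissue was the posterior part of the capsule that encloses the knee joint, taken from male wild-type C57BL/6 mice at 10 weeks of age. The naive group of 4 libraries is from mice that wore no cast. The cast group of 4 libraries is from mice whose cast kept the knee at an angle of 140 degrees over the last 2 weeks, beginning at 8 weeks of age. All groups shared strain, sex, genotype and age at collection, and no transgene or drug is named in the labels. No label says that the libraries of a group came from separate mice, so each spread and p-value covers only the difference between these libraries, which may be technical. The comparison asks how expression in the capsule differed after immobility of the knee.

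Clustered protocadherins are single-pass membrane proteins that bind like molecules on the neighbouring cell through their extracellular cadherin repeats. In the alpha and gamma clusters, each variable exon has its own promoter, encodes the extracellular and transmembrane parts, and is spliced to constant exons shared by the whole cluster. Beta genes have no constant exons, and each is a single-exon gene with a short cytoplasmic tail of its own. Neurons choose a few promoters per cell, with CTCF and cohesin looping an enhancer to the chosen promoter, and the resulting cell-surface identity is best known for self-avoidance of neurites. The C-type genes at the end of the alpha and gamma clusters are regulated apart from the others.

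In the RefSeq annotation of GRCm38.p6, all members lie on the plus strand of chromosome 18. The alpha cluster runs from 36952689 to 37188897, the beta cluster from 37294840 to 37521419 and the gamma cluster from 37661775 to 37841873. RefSeq holds 58 genes of this kind, and Pcdha1, Pcdha2, Pcdha3, Pcdha12, Pcdhac1 and Pcdhb1 were not analysed here. The GENCODE transcripts of the beta members had 1 exon and 2801 to 8695 nt, those of the alpha members 4 exons and 5206 to 5888 nt, and those of the gamma members 4 exons and 4615 to 5080 nt. The sharing of exons sets how far a read can be assigned to 1 member. Windows of 150 nt were compared among clustered protocadherin transcripts only, and other genes were not searched. For the beta members, a median of 100% of a transcript's windows occurred in no other clustered protocadherin (93.3% to 100%). The median was 56.6% for gamma (37.5% to 59.9%) and 47.0% for alpha (44.3% to 52.7%). Values of single alpha and gamma members therefore depend on how the counting divided reads of the shared exons, and values of Pcdhb21 and Pcdhb22, whose transcript models overlap, may also share reads.

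Values are deposited normalised read counts, and every value is a whole multiple of the value of 1 read in its library. The libraries held 5956148 to 7381255 recovered reads, except naive replicate 4 with 1503880. In that library 1 read was worth 0.647, against 0.133 to 0.165 in the others, and 2264 genes were at 0 against 330 to 608 in the others. Its median correlation with the other libraries of its group, on log2 of value + 1, was 0.912, against 0.964 to 0.984 in the others. Whether depth alone accounts for its differences was not tested. Its low values of single members rest on few reads. Fold changes of described members that it moves by more than 1.5 times are therefore also given without it. For genes outside the clusters this was done only in part. As a limited check of the tissue label, the fibroblast gene Pdgfra was at 925 to 977 in naive and 998 to 1149 in cast libraries. Prg4 and Col1a1 were present in every library. Presence of these genes does not show which part of the joint was taken. RNA came from whole tissue, so fewer cells of a type and less RNA per cell cannot be told apart.

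The clusters differed in direction. The summed beta value was higher in cast capsules, the summed gamma value was lower on average with overlapping groups, and the small alpha sum was lower through a single gene, Pcdhac2. The members were chosen for their difference between naive and cast libraries, so these values are a description and carry no test. The beta sum was 145, 128, 118 and 66.6 in naive replicates 1 to 4, and 237, 179, 222 and 190.0 in cast replicates 1 to 4. Every cast library lay above every naive library, with means of 115 ± 33.9 and 207 ± 27.0 (SD, n = 4 each), a ratio of 1.80, or 1.58 without naive replicate 4. The gamma sum was 717, 805, 611 and 671 in naive and 592, 630.0, 498 and 409 in cast libraries. Cast replicate 2 lay above the lowest naive library, so the groups overlapped, and the means were 701 ± 81.8 and 532 ± 99.1, a ratio of 0.759. The alpha sum was 8.74, 6.61, 5.13 and 5.82 in naive and 4.12, 4.65, 4.09 and 2.13 in cast libraries, with no overlap and a ratio of 0.570. Set against each other within a library, the beta sum was 0.203, 0.159, 0.194 and 0.0992 of the gamma sum in naive and 0.400, 0.284, 0.446 and 0.465 in cast libraries. A scaling by 1 factor per library leaves this quotient as it is, and its groups did not overlap. Its mean was 2.43 times as high in cast libraries, or 2.15 times without naive replicate 4, and it was 2.21 times as high when Pcdhgc3 was left out of the gamma sum.

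**Figure D1:**
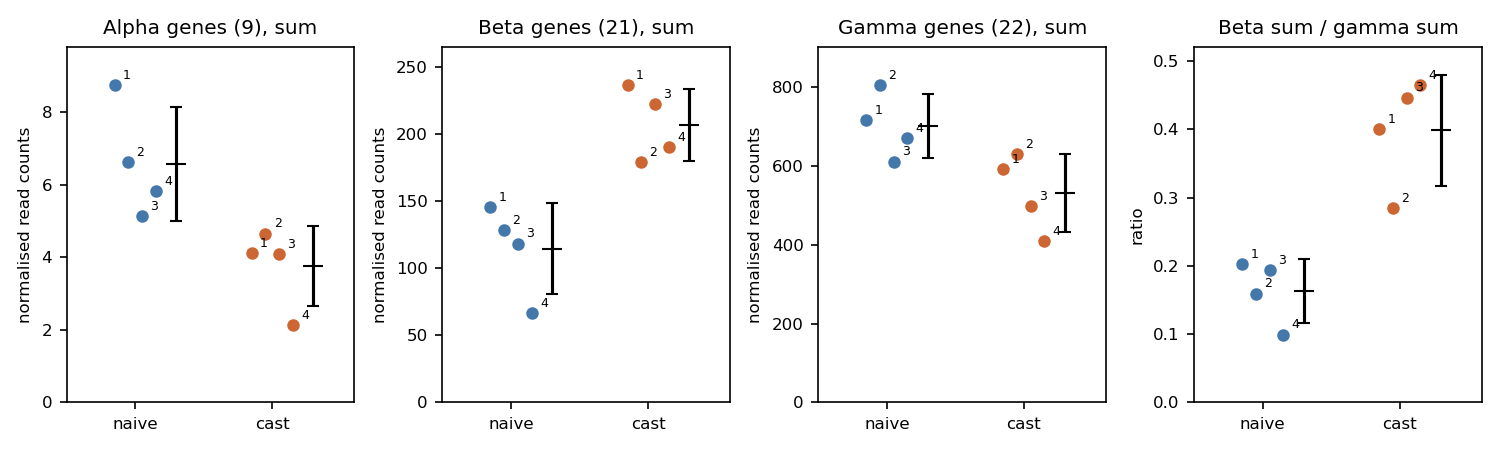
Summed normalised counts of the beta, gamma and alpha clusters in each of 8 libraries, and the beta sum divided by the gamma sum, with points for libraries and bars for the group mean and SD. The beta sum and its quotient to gamma lie higher in all 4 cast libraries than in any naive library, while the gamma groups overlap.

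Of the 52 members, 45 passed the filter on low values, which required a mean of at least 0.5 over the 8 libraries: 21 of 21 beta, 22 of 22 gamma and 2 of 9 alpha genes. In the fit over all 15120 genes that passed, 12.0% of genes were called at an adjusted p of at most 0.05 (limma with Benjamini-Hochberg adjustment), 6.51% as higher and 5.46% as lower in cast capsules. Among the members, 5 were called higher, all of them beta genes (Pcdhb3, Pcdhb7, Pcdhb9, Pcdhb12 and Pcdhb21), and Pcdhac2 was called lower. Since the same contrast chose the members, nothing is read from these counts. Over the main analysis and 22 alternatives, Pcdhb9 was called in all 23, Pcdhb7 and Pcdhac2 in 19, and Pcdhb12, Pcdhb3 and Pcdhb21 in 15, 14 and 13. The number of beta genes called was 2 when naive replicate 3 or cast replicate 1 or 2 was left out, 3 when cast replicate 4 was, and 1 when cast replicate 3 was, and the call of Pcdhac2 was lost without naive replicate 2 or cast replicate 3. Log2 fold changes below are cast minus naive on the scale log2(value + 1), which understates the change of low genes. Over all 15120 genes their median was 0.07, with 8429 positive and 6691 negative.

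All 21 beta genes had a higher mean value in cast than in naive libraries. Their log2 fold changes ran from 0.33 in Pcdhb2 to 1.51 in Pcdhb7, with a median of 0.82, and their mean ratios ran from 1.29 to 3.19 with a median of 1.90. Without naive replicate 4 all 21 stayed positive, from 0.17 in Pcdhb14 to 1.52 in Pcdhb9 with a median of 0.53, and 9 of them moved by more than 1.5 times. In 12 of them every cast library lay above every naive library, as in 11.1% of all genes. Without naive replicate 4 this count was 13, and the share of all genes was 15.5%. The first 12 were Pcdhb3, Pcdhb5, Pcdhb7, Pcdhb8, Pcdhb9, Pcdhb12, Pcdhb16, Pcdhb17, Pcdhb18, Pcdhb20, Pcdhb21 and Pcdhb22. They are spread along the cluster and include both scarce and abundant members.

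The largest difference on the log2 scale was that of Pcdhb7. Its values were 3.62, 3.71, 3.47 and 0.647 in naive and 9.39, 9.74, 9.68 and 7.74 in cast libraries. The lowest naive value was 1 read in the shallow library, but the other 3 naive values also lay below all cast values. The log2 fold change was 1.51 ± 0.34 (SE) and the ratio of means was 3.19. Pcdhb9 followed with 4.07, 4.84, 3.97 and 6.47 in naive and 17.1, 10.9, 14.7 and 14.4 in cast libraries. Here the shallow library was the highest of the naive group, and still well below the lowest cast library. The log2 fold change of Pcdhb9 was 1.39 ± 0.22, with means of 4.84 ± 1.16 and 14.3 ± 2.55. Pcdhb18 had 11.6, 6.61, 7.61 and 1.94 in naive and 17.1, 13.8, 14.0 and 14.3 in cast libraries, a log2 fold change of 1.17 ± 0.39, or 0.75 without naive replicate 4. Its lowest naive value was 3 reads in that library.

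The most abundant beta genes by mean value were Pcdhb16, Pcdhb17, Pcdhb22 and Pcdhb14, which lie in the later part of the cluster. Pcdhb16 had 20.6, 16.9, 17.9 and 7.12 in naive and 39.1, 23.4, 29.9 and 26.4 in cast libraries, a log2 fold change of 0.95 ± 0.32. Its groups did not overlap, and it made up 13.3 ± 1.90% of the beta sum in naive and 14.2 ± 1.56% in cast libraries, so its share of the cluster hardly moved. Pcdhb17 had 16.3, 16.6, 14.7 and 10.996 in naive and 23.9, 17.7, 24.5 and 18.7 in cast libraries, a log2 fold change of 0.51 ± 0.20. Pcdhb22 had 13.3, 14.4, 12.1 and 8.41 in naive and 15.2, 14.5, 19.9 and 15.2 in cast libraries, a log2 fold change of 0.41 ± 0.21, or 0.27 without naive replicate 4, and its groups all but met at naive and cast replicates 2. Pcdhb14 was the one of these 4 whose groups overlapped: it had 17.5, 11.3, 13.6 and 3.88 in naive and 14.3, 15.4, 18.7 and 15.1 in cast libraries, a log2 fold change of 0.58 ± 0.37. Without naive replicate 4, the lowest library, the log2 fold change of Pcdhb14 was 0.17 and its ratio of means was 1.13 in place of 1.37.

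**Figure D2:**
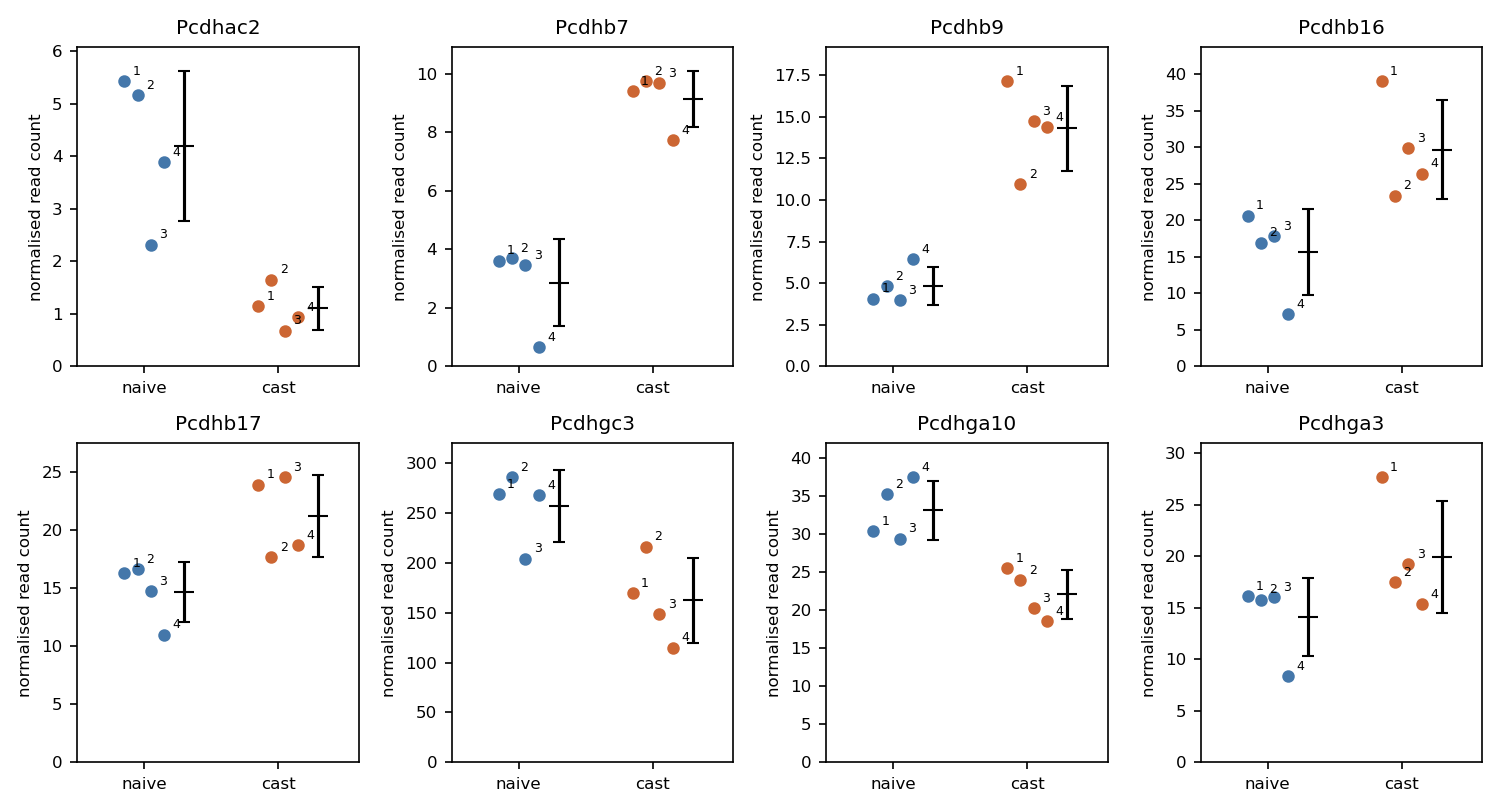
Normalised counts of 8 members in each library, with points for libraries and bars for the group mean and SD. The beta genes Pcdhb7, Pcdhb9, Pcdhb16 and Pcdhb17 lie higher in all cast libraries, Pcdhac2 and Pcdhga10 lower, and Pcdhgc3 and Pcdhga3 overlap between the groups.

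The remaining beta genes kept the same direction at lower levels. The scarcest were Pcdhb6, with 0.603, 0.807, 0.827 and 1.29 in naive and 1.81, 1.65, 1.64 and 1.07 in cast libraries, and Pcdhb8, with 1.66, 0.968, 1.49 and 0 in naive and 2.31, 2.10, 2.18 and 2.00 in cast libraries. The value of 0 in the shallow library allows up to 3 reads there, worth 1.94, which is still below the lowest cast value. The log2 fold change of Pcdhb8 was 0.73, or 0.42 without that library. Pcdhb10 went the other way in the shallow library, where its 5.17 was the highest of all 8 libraries, and its log2 fold change was 0.42 ± 0.41. Without that library the log2 fold change of Pcdhb10 was 0.80 and its ratio of means was 2.25, against 1.29 with it. With each other library left out in turn it was lowest without naive replicate 3, at 0.16. The beta reads behind these values numbered 965, 795, 716 and 103 in naive and 1435, 1194, 1631 and 1425 in cast libraries.

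Divided by transcript length, levels were higher towards the end of the beta cluster. The length was that of the longest coding GENCODE transcript, which for some genes exceeds the RefSeq gene. Pcdhb14 had 8695 nt in this way, though its RefSeq gene runs only from 37447657 to 37451094. Levels per kilobase and their order depend on this choice, and no other was tried. The naive level per kilobase ran from 0.237 to 3.14 over the 21 genes with a median of 0.981, and the Spearman correlation between a gene's position along the chromosome and this level was 0.70 over the 21 genes. In cast capsules the level per kilobase ran from 0.413 to 5.68 with a median of 1.96. The order of the genes by mean value, not divided by length, hardly changed, with a Spearman correlation of 0.95 between naive and cast means. The fold change had no such order along the cluster (Spearman 0.01 with position). These correlations describe genes measured in the same 8 libraries, which are not independent.

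**Figure D3:**
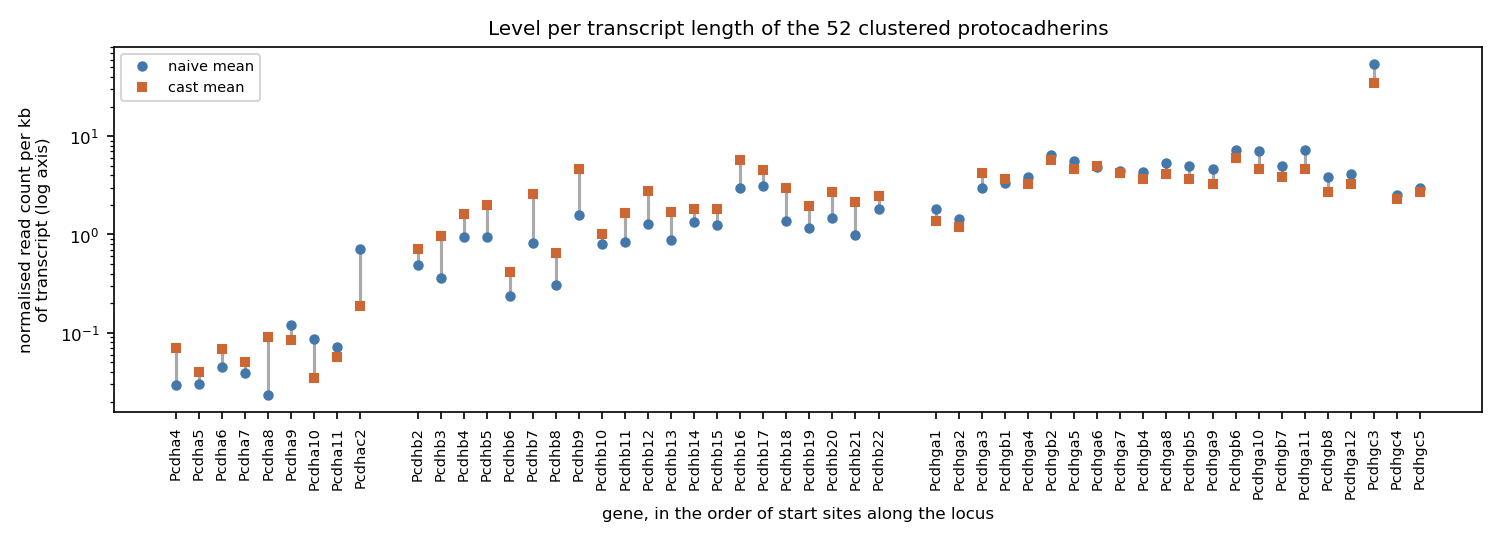
Mean normalised count per kilobase of transcript for each of the 52 members in naive and cast libraries, on a log axis, in chromosomal order. Beta levels are higher towards the end of the cluster and lie higher in cast libraries for all 21 genes, and Pcdhgc3 stands far above every other gamma gene in both groups.

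The beta genes are single-exon genes, so they were set beside the other protein-coding genes with 1 exon. Of 334 such genes that passed the filter, 203 had a positive log2 fold change, against 8429 of all 15120 genes. The median of the 334 was 0.17, against 0.07 over all genes. Of the 334, 49 (14.7%) were higher and 8 (2.40%) lower in cast capsules past the threshold, against 6.51% and 5.46% of all genes. Among the 294 with a mean value under 50, the median was also 0.17, with 47 (16.0%) higher and 4 (1.36%) lower. The share called higher was thus above that of all genes, and the part of gene structure in the beta values was not tested.

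The gamma cluster holds 12 gamma A and 7 gamma B genes, which alternate along the chromosome over part of the cluster, and the C-type genes Pcdhgc3, Pcdhgc4 and Pcdhgc5. The mean value was lower in cast libraries for 19 of the 22 and higher for Pcdhga3, Pcdhgb1 and Pcdhga6. Log2 fold changes ran from -0.68 to 0.48 with a median of -0.25, and mean ratios from 0.628 to 1.42 with a median of 0.828. None of the 22 was called by limma, and 4 had an unadjusted limma p under 0.05. On recovered reads edgeR called 0, and DESeq2 called 2, Pcdhga10 and Pcdhgc3. Of all 15120 genes, limma called 1810, and 4026 had an unadjusted limma p under 0.05. Over the same genes edgeR called 2039 and DESeq2 called 2754. Every cast library lay below every naive library in 3 of the 22, Pcdhga10, Pcdhgb7 and Pcdhgb8, as in 9.39% of all genes. Without naive replicate 4 this count was 5, and the share of all genes was 15.1%. The summed value in cast libraries was 0.824 of that in naive libraries for gamma A, 0.834 for gamma B and 0.658 for the C-type genes. Among the C-type genes this ratio was 0.632 for Pcdhgc3, 0.902 for Pcdhgc4 and 0.898 for Pcdhgc5, so the low class ratio was that of Pcdhgc3.

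Pcdhgc3, a C-type gene expressed well outside the nervous system, was the most abundant clustered protocadherin in every library. It had 269, 286, 204 and 268 in naive and 169, 216, 148 and 115 in cast libraries. Cast replicate 2 lay above naive replicate 3, so the groups overlapped, and the log2 fold change was -0.68 ± 0.22. Its share of the gamma sum was 37.5%, 35.5%, 33.4% and 39.9% in naive and 28.6%, 34.3%, 29.8% and 28.1% in cast libraries. Per kilobase it stood at 54.7 in naive and 34.6 in cast libraries, against a median of 4.53 and 3.79 over all 22 gamma genes. Without it the gamma sum in cast libraries was 0.832 of the naive sum. The other C-type genes were scarce, Pcdhgc4 at 12.8 ± 1.13 in naive and 11.5 ± 2.12 in cast libraries and Pcdhgc5 at 14.2 ± 2.72 and 12.7 ± 4.23, and both overlapped between the groups. Without cast replicate 2 their log2 fold changes were -0.25 and -0.36, against -0.15 and -0.18 with all libraries.

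After Pcdhgc3, the lowest log2 fold changes were those of Pcdhga11 and Pcdhga10, which lie on either side of Pcdhgb7 near the end of the gamma A and B genes. Pcdhga10 had 30.4, 35.3, 29.4 and 37.5 in naive and 25.5, 24.0, 20.3 and 18.5 in cast libraries, a log2 fold change of -0.57 ± 0.17. All of its cast values lay below all naive values. Pcdhga11 had 28.3, 35.5, 26.8 and 48.5 in naive and 19.6, 27.6, 23.6 and 16.5 in cast libraries, a log2 fold change of -0.63 ± 0.24. Its groups overlapped by 1 library on each side, and the highest naive value came from the shallow library.

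The abundant gamma B genes differed less. Pcdhgb6 had 34.96, 42.8, 36.7 and 22.6 in naive and 32.6, 32.5, 27.8 and 19.5 in cast libraries, a log2 fold change of -0.27 ± 0.24, which ran from -0.45 without naive replicate 4 to -0.11 without cast replicate 4. Pcdhgb2 had 31.0, 30.0, 30.8 and 27.2 in naive and 24.4, 27.9, 31.1 and 23.6 in cast libraries, a log2 fold change of -0.15 ± 0.16, no larger than its error, and -0.10 without cast replicate 4. At the other end stood Pcdhga3, with 16.1, 15.8, 16.0 and 8.41 in naive and 27.7, 17.5, 19.2 and 15.3 in cast libraries. Its log2 fold change was 0.48 ± 0.27, or 0.27 without naive replicate 4 and 0.32 without cast replicate 1, and its groups overlapped through cast replicate 4. Pcdhgb1 (0.10 ± 0.28) and Pcdhga6 (0.03 ± 0.22), the other gamma genes with a positive log2 fold change, differed by less than their errors. Both were negative without naive replicate 4, at -0.051 and -0.0046, where Pcdhga2 turned to 0.010, so that 2 of 22 gamma genes were positive and 20 negative.

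The Spearman correlation between position along the gamma cluster and log2 fold change was -0.53 over the 22 genes, with the positive values in its first part. That between naive level and log2 fold change was also -0.53, and the fold change contains the naive level. Gamma members share constant exons and libraries, so the points are not independent. The gamma reads numbered 4758, 4991, 3695 and 1038 in naive and 3589, 4204, 3655 and 3066 in cast libraries.

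**Figure D4:**
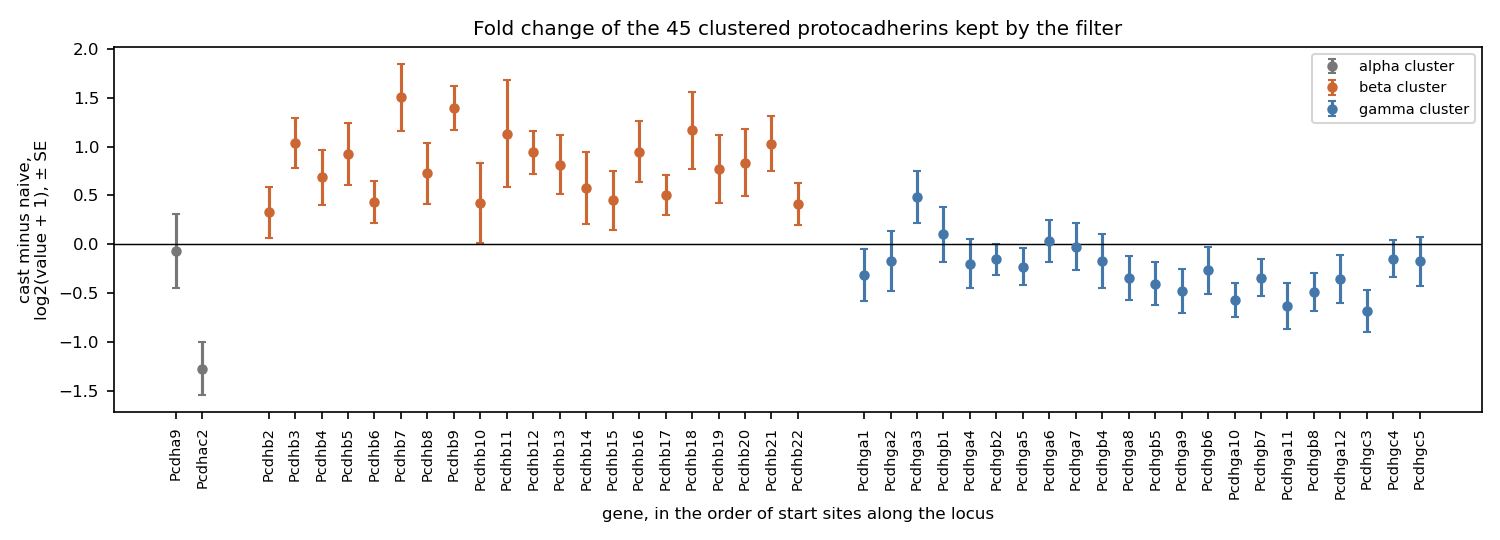
Log2 fold change (cast minus naive, on the scale of log2 of value + 1) of the 45 members that passed the filter. Genes are in chromosomal order, with bars of 1 SE. The 21 beta genes lie above 0 throughout, and 19 of the 22 gamma genes lie below it, with Pcdhga3, Pcdhgb1 and Pcdhga6 above.

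The alpha cluster was close to the limit of detection except for its last gene. Its 9 listed members together had 58, 41, 31 and 9 reads in naive and 25, 31, 30 and 16 in cast libraries. Pcdhac2, the C-type gene nearest the constant exons, had values of 5.42, 5.16, 2.31 and 3.88 in naive and 1.15, 1.65, 0.682 and 0.934 in cast libraries. All cast values lay below all naive values, with means of 4.20 ± 1.42 and 1.10 ± 0.411 and a log2 fold change of -1.28 ± 0.27. These values rest on 88 naive and 30 cast reads, a cast-to-naive ratio of 0.260 with a 95% exact interval of 0.166 to 0.398 that covers counting error only. The other 8 alpha genes together had 51 naive and 72 cast reads, a ratio of 1.08 with an interval of 0.742 to 1.57. Their sum was 3.32, 1.45, 2.81 and 1.94 in naive and 2.97, 2.997, 3.41 and 1.20 in cast libraries, so the groups overlapped and no difference was detectable at this depth.

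Single alpha genes cannot be ordered by level. Pcdha9 had 0, 0.645, 0 and 1.94 in naive and 0.824, 0.300, 0.682 and 0 in cast libraries, and it passed the filter through 3 reads in the shallow library. Its ratio of cast to naive means was 0.698 with that library and 2.10 without it. Pcdha10 had 12 naive and 5 cast reads, and Pcdha11 had 10 and 8. The remaining 5, Pcdha4 to Pcdha8, had 3 to 6 naive and 6 to 13 cast reads each.

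Promoter choice in these clusters is known to depend on CTCF and cohesin and to be restrained by DNA methylation and by the chromatin proteins Smchd1 and Setdb1. Of 28 genes of a list of such chromatin regulators that passed the filter, 1 of 28 rose and 0 fell past the threshold. Over all genes 6.51% rose and 5.46% fell. The list median was 0.14 in log2 fold change. The one that rose was Hells, a chromatin remodelling helicase of dividing cells, from 1.61 ± 1.30 to 7.78 ± 3.99 (log2 fold change 1.78, limma adjusted p = 0.0461). Its call was lost in 8 of 22 alternative analyses, among them those without naive replicate 2 or 3 or cast replicate 1, 2 or 3. Ctcf, which binds the promoters and enhancers of the clusters, was at 55.5, 63.7, 69.6 and 41.4 in naive and 68.1, 68.5, 65.2 and 59.5 in cast libraries, with overlapping groups (limma adjusted p = 0.532). Of the other genes looked at whatever their test, the cohesin subunit Rad21 had a log2 fold change of -0.01 (limma adjusted p = 0.981). Smchd1 had 0.32 (0.653), the DNA methyltransferase Dnmt3b 0.32 (0.362) and the histone methyltransferase Setdb1 -0.16 (0.545), in log2 fold change and limma adjusted p.

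A list of signalling and cleavage partners held kinases that bind protocadherin tails and proteases that cut them. Of its 27 genes that passed the filter, 0 rose and 1 fell, against 6.51% and 5.46% of all genes. The list median was 0.07 in log2 fold change. Fyn, a Src family kinase, fell from 82.4, 101, 92.4 and 95.7 to 47.8, 51.9, 48.7 and 46.3 (log2 fold change -0.91, limma adjusted p = 0.00404). Its groups did not overlap, and the call held in all 22 alternatives. The focal adhesion kinases Ptk2 and Ptk2b, known to be inhibited by alpha and gamma protocadherins, had log2 fold changes of -0.05 and 0.17 (limma adjusted p = 0.873 and 0.728). Adam10, the protease that sheds the extracellular part, had 0.33 (limma adjusted p = 0.571).

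The 24 neighbouring genes of the locus that passed the filter, which flank the 3 clusters, served as a local comparison. Their list overlaps that of the non-clustered protocadherins, and the lowest log2 fold change of both lists was the same, at -0.51. By limma, edgeR or DESeq2 0 of 24 were called, where limma called 12.0% of all genes. Before adjustment 1 had a limma p under 0.05, as had 4026 of all 15120 genes. The median log2 fold change of the 24 was 0.11. Their summed value was 848 ± 80.2 in naive and 905 ± 68.3 in cast libraries, with overlapping groups. Hdac3, a histone deacetylase gene of the locus, was at 45.9 ± 7.27 and 46.9 ± 6.23 (limma adjusted p = 0.926). Diaph1, another neighbour, was not analysed here.

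Relatives outside the clusters showed no single direction gene by gene. Over all genes 6.51% were called higher and 5.46% lower. These lists were chosen with earlier results of these data known, so nothing is read from their counts. Of 9 non-clustered protocadherins that passed the filter, 2 rose and 0 fell, with a median of 0.13: Pcdh9 from 26.4 ± 6.68 to 59.8 ± 14.0 (log2 fold change 1.16, limma adjusted p = 0.0144) and Pcdh17 from 9.71 ± 0.790 to 19.0 ± 5.35 (0.87, limma adjusted p = 0.0326). The call of Pcdh17 was lost in 9 of 22 alternatives, among them those without naive replicate 1, 2 or 3 or cast replicate 1 or 3. The summed value of the non-clustered protocadherins was 265 ± 27.7 in naive and 311 ± 16.9 in cast libraries, a ratio of 1.18. Every cast library lay above every naive library in this sum, while the mean log2 level of the list overlapped between the groups. Of 18 classical and atypical cadherins, 4 rose and 3 fell, with a median of 0.24. Cdh11, the cadherin of synovial and other mesenchymal fibroblasts, rose from 30.0 ± 8.34 to 239 ± 70.8 (log2 fold change 2.95, limma adjusted p = 0.000299). Cdh3 rose by 1.20 (limma adjusted p = 0.0110) and Cdh1, the epithelial cadherin, by 1.24 (limma adjusted p = 0.0194). These rest on 5 naive and 48 cast reads of Cdh3 and on 11 and 67 of Cdh1, whose call was lost without cast replicate 2 or 3. Cdh2, the neural cadherin, rose by 1.28 (limma adjusted p = 0.0486) and was named after its value was seen. The call of Cdh2 lay close to the threshold and was not followed over the alternatives. With a pseudocount of 0.5, 3 cadherins were called higher in place of 4. Cdh13, a cadherin anchored by a lipid tail, fell from 243 ± 122 to 56.6 ± 6.69 (log2 fold change -1.98, limma adjusted p = 0.00283). Celsr2, a seven-pass cadherin, and Cdh4, the retinal cadherin, fell by 2.09 and 1.90 on the log2 scale (limma adjusted p = 0.0119 and 0.0251). The call of Cdh4 was lost when naive replicate 2 or cast replicate 2 or 4 was left out, and 4 cadherins in all were called without cast replicate 2.

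**Figure D5:**
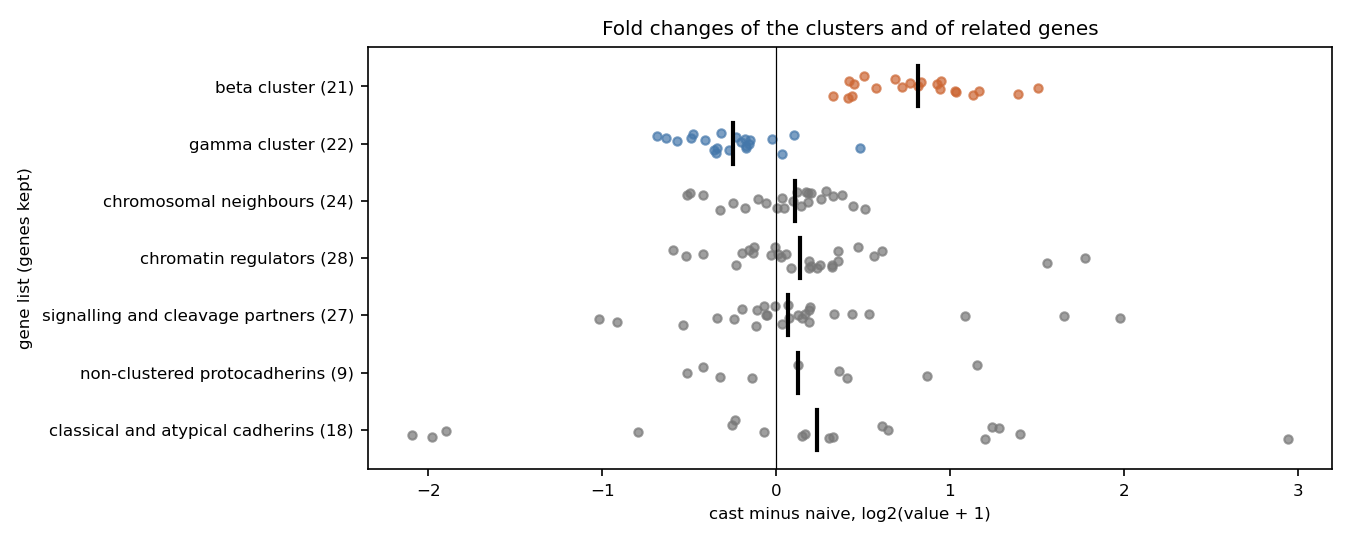
Log2 fold change (cast minus naive, on the scale of log2 of value + 1) of every gene that passed the filter in the beta and gamma clusters and in 5 lists, with a line at each median. The beta median is 0.82 and the gamma median -0.25, and the medians of the 5 lists lie between 0.07 and 0.24. The lists of neighbours and of non-clustered protocadherins overlap.

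Some markers of other cell types also differed between the groups, and their part in the protocadherin values was not tested. Of all genes, 6.51% were called higher and 5.46% lower in cast capsules. Nothing is read from a count of 1 in a list. Skeletal muscle markers (12 genes, 5 lower and 0 higher past the threshold) summed to 102 to 2553 in naive and 14.9 to 345 in cast libraries, and naive replicate 4, the lowest in the beta sum, was also the lowest naive library in muscle markers. Leukocyte markers (4 of 10 higher) summed to 1471 to 3361 in naive and 3307 to 5869 in cast libraries, and 4 of 7 adipocyte markers were lower. Neuron markers were near the limit of detection. Of 12, Snap25, Nefl, Nefm and Syt1 had no value here, 3 did not pass the filter, 1 of the remaining 5 was higher in cast capsules (Scn9a), and the sum of the list was 11.3 to 24.6 in naive and 11.4 to 22.9 in cast libraries. Schwann cell markers summed to 677 to 764 in naive and 787 to 1139 in cast libraries, with 1 of 14 higher and 2 lower. Fibroblast markers summed to 28163 to 46726 in naive and 26449 to 44270 in cast libraries, with 1 of 10 higher. Expressed per fibroblast marker sum, the beta sum was 0.323 ± 0.0850% in naive and 0.590 ± 0.0902% in cast libraries, and the groups did not overlap. The 10 fibroblast markers did not move together, with 4 positive and 6 negative log2 fold changes, from -1.19 to 3.22. Their sum need not follow the number of fibroblasts, so this quotient is not a level per fibroblast. Of mural cell markers 1 of 10 was lower. By limma 0 of 10 endothelial markers were called (1 at an unadjusted p under 0.05, 0 by edgeR, 1 by DESeq2) and 0 of 6 tendon markers (2 at an unadjusted p under 0.05, 1 by edgeR, 2 by DESeq2).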

How the data were processed

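Per the labels' protocols, frozen capsules gave 200 ng of total RNA per library for ribosomal depletion, directional library preparation and paired sequencing of 150 nt. The protocol text names Trimmomatic 0.38 and the human build hg38, whereas the submitters' processing notes give mm10, a mouse build, with Trimmomatic 0.36, RSEM, Bowtie2 and edgeR. The deposited symbols are those of mouse genes. The sources used here do not give how reads of shared exons were divided or whether strand was used.

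The deposited table holds normalised read counts (unit: signal) made by the authors for 16464 genes. All values (100%) were whole multiples of the value of 1 read within 0.01, so reads were recovered. The smallest read sum of a listed gene was 8. Values were taken as log2(value + 1), the filter kept the 15120 genes whose mean reached 0.5, and limma-trend compared the groups (Benjamini-Hochberg, 0.05) after being tested on simulated data.

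The members and lists were chosen with earlier results of these data known. Lists held chromatin regulators, signalling and cleavage partners, non-clustered protocadherins, classical and atypical cadherins, locus neighbours and 9 sets of cell type markers. Members named were, per cluster, the 4 with the highest mean, the 3 largest differences in each direction and the C-type genes; in other lists, up to 6 genes past the threshold and a fixed panel (Ctcf, Rad21, Smchd1, Dnmt3b, Setdb1, Ptk2, Ptk2b, Adam10, Diaph1, Hdac3). Further members are named to account for each count, after their values were seen.

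Positions came from RefSeq (GRCm38.p6) and transcripts from GENCODE M21, where the one of 2 genes with the symbol Pcdha11 that starts at RefSeq's Pcdha10 was taken as Pcdha10. Alternatives were pseudocounts of 0.5 and 5, no filter and one at 2.5, median-of-ratios and quantile scaling, no trend, array weights, muscle marker level as covariate, replicate number as a block, edgeR and DESeq2 on recovered reads, and each library left out. Chosen after seeing the data were thinning to the depth of naive replicate 4 and leaving out cast replicates 1 and 2. Tools were Python 3.11.15 (numpy 2.4.6, scipy 1.17.1, pandas 2.3.3, matplotlib 3.10.9) and R 4.3.3 (DESeq2 1.42.0, limma 3.58.1, edgeR 4.0.16).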

Additional observations from a re-analysis of the deposited data

Results flagged for a closer look

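Within groups of 4 libraries, a highest or lowest value was singled out where its gap to the next exceeded Dixon's 95% critical value. This held for 10 of 106 groups examined, and chance gives about 1 in 20. Among the members, naive replicate 4 was the lowest naive library for Pcdhb7 at 0.647, which is 1 read, and for Pcdhga3 at 8.41. In the same library Pcdhb9 made up 9.71% of the beta sum, the highest naive share, against 2.80% to 3.77% in the other naive libraries. In cast libraries, Pcdhb22 was highest at 19.9 in replicate 3 and Pcdhb18 at 17.1 in replicate 1. Pcdha10 had 0.749 in cast replicate 2 and 0 in the other cast libraries.

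Among genes outside the clusters, naive replicate 4 was the highest naive library for Cdh13 at 426 and for Ptk2b at 44.0, and the lowest for Adam10 at 58.2. Naive replicate 2 was the highest for Cdh4 at 45.7. Naive replicate 4 thus held 6 of the 10 values, and it was also the shallowest library.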

How the results depend on the processing

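The beta sum, the gamma sum and their quotient kept their direction under every scaling, thinning and leave-out tried; sums have no value under the pseudocount, filter and model alternatives. Their log2 ratios without 1 library ran from 0.66 to 0.99 (beta), -0.49 to -0.29 (gamma), 1.11 to 1.42 (quotient) and -0.93 to -0.62 (alpha sum), with -1.35 for the alpha sum under quantile normalisation and -0.63 for the gamma sum without cast replicates 1 and 2. The beta median stayed positive, at 0.46 with a pseudocount of 5, 1.33 with the muscle covariate and 0.53 (without naive replicate 4) to 0.94 without 1 library. With the muscle covariate 19 beta genes were positive and 2 negative. The gamma median ran from -0.37 to -0.14 without 1 library. The alpha median, over the 2 genes kept, was -0.31 with a pseudocount of 5, 0.069 with no filter (which adds 7 scarce genes), -1.28 with the filter at 2.5 (1 gene left), -1.08 with the muscle covariate, -1.09 by DESeq2 and -1.29 to -0.57 without 1 library.

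Counts of calls moved more, and the cause was not tested. Over the whole table, 1810 genes became 3985 with array weights, 4019 with the muscle covariate, 2754 by DESeq2, 717 without cast replicates 1 and 2, and 916 to 2665 without 1 library. Beta calls (5) became 3 under quantile normalisation, 9 with array weights, 14 with the muscle covariate, 1 without cast replicates 1 and 2, and 1 to 7 without 1 library. Gamma calls (0) became 4 with array weights, 2 with the muscle covariate and 2 by DESeq2, and stayed 0 without any 1 library. The alpha call (1) became 0 in thinned libraries and without cast replicates 1 and 2, and 0 to 1 without 1 library. Chromatin regulators (1) became 0 with a pseudocount of 0.5, with the filter at 2.5 and without cast replicates 1 and 2, 3 with array weights, 8 with the muscle covariate, 2 by edgeR, 2 by DESeq2, and 0 to 2 without 1 library. Signalling and cleavage partners (1) became 4 with array weights, 7 with the muscle covariate, 2 by edgeR, 3 by DESeq2, 2 in thinned libraries, and 1 to 4 without 1 library. Non-clustered protocadherins (2) became 1 under quantile normalisation, 1 in thinned libraries, 0 without cast replicates 1 and 2, and 1 to 3 without 1 library. Cadherins (7) became 4 in thinned libraries, 2 without cast replicates 1 and 2, and 4 to 6 without 1 library. Locus neighbours (0) became 1 with array weights and 4 with the muscle covariate, and stayed 0 without any 1 library.

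With replicate number as a block, 2 beta genes (Pcdhb7 and Pcdhb9), 3 partners and 1 non-clustered protocadherin were called, and 1371 genes over the whole table. No pairing by number was found: correlations of same-numbered deviations were 0.0797, 0.0353, -0.0571 and -0.0214 for replicates 1 to 4. Of 8 libraries, 1 correlated best with its own number. A check on so few libraries cannot exclude a pairing.

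Several genes that were not called changed sign, in log2 fold change. Rad21 (-0.01) became 0.024 under quantile normalisation and 0.30 with the muscle covariate, and ran from -0.13 to 0.052 when 1 library was left out. Smchd1 became -0.13 with array weights and ran from -0.15 (no naive replicate 4) to 0.52, and Dnmt3b became -0.10 in thinned libraries. Ptk2 became 0.22 with the muscle covariate and 0.058 with cast replicates 1 and 2 left out, and ran from -0.15 to 0.018. Ptk2b became -0.37 with the muscle covariate and -0.11 with cast replicates 1 and 2 left out, and Adam10 ran from -0.050 (no naive replicate 4) to 0.49. Hdac3 became -0.0062 under quantile normalisation and -0.017 with array weights, and ran from -0.082 (no naive replicate 4) to 0.13. Depth limits the alpha genes and the values of naive replicate 4, where 103 reads lie behind the whole beta sum.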
